A study of Mus musculus with 239 samples.

Results

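Immunoproteasome and MHC class I genes were followed through single mammary epithelial cells of the mouse. The 10 genes, of 18850 in the table, were chosen by name: the immunoproteasome subunits Psmb8, Psmb9 and Psmb10, the peptide transporter and loading genes Tap1, Tap2 and Tapbp, the class I chains B2m, H2-K1 and H2-D1, and the transactivator Nlrc5. The study compared basal with luminal cells, and glands of pregnant with glands of virgin females, to describe how mammary epithelial cells vary. Its 239 cells came from FVB females 3 to 4 months old, with no transgene or treatment in the labels: 49 luminal cells and a larger number of basal cells at day 12 of pregnancy (12.5 in the protocol), and 34 basal and 54 luminal cells of virgin females. Haematopoietic and endothelial cells had been depleted, and flow cytometry on CD24 and CD29 separated what remained. Basal cells were those with mid CD24 and high CD29, luminal cells those with high CD24 and low CD29, and both were captured on microfluidic chips. Labels name neither mouse nor chip, and a group is therefore 1 sample. Mouse, chip and group cannot be told apart, and no test was made between groups.

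MHC class I molecules carry short peptides from inside the cell to its surface, where CD8+ T cells inspect them. The peptides are cut by the proteasome, whose 3 constitutive catalytic subunits can be replaced by immunoproteasome subunits. They are then pumped into the endoplasmic reticulum by the TAP transporter and loaded onto a class I heavy chain paired with beta-2 microglobulin. Interferon gamma is the best known inducer of these genes, and in epithelia they are commonly expressed at a basal level without it.

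Levels are given as FPKM, a fragment number scaled by transcript length and sequencing depth, and group averages as log2(FPKM + 1) averaged over cells, with its SD. Values of different genes are compared on this scale per length. The ratio of mean FPKM is given as the log2 ratio of the group means of FPKM, each with 1 added. The added 1 shrinks this ratio for genes of low mean. A difference of 1 on the log2 scale was counted as a difference, and the background is the share of genes past 1 among the 7863 that reached 1 FPKM in at least 10% of cells, averaged over the 4 groups. All 10 genes were among these. Depth, read from the steps between low values, had a median per cell of 9.12 M fragments (M, mega) in pregnant basal, 8.86 M in pregnant luminal, 6.18 M in virgin basal and 8.54 M in virgin luminal cells, with a range over all cells of 1.15 M to 39.9 M. The median cell had 2734.5, 3653, 1825 and 3773 genes at 1 FPKM in the same order, so virgin basal cells had the fewest. At 1 FPKM and median depth Psmb8 stood for 10.7 fragments, Psmb9 for 7.01, Psmb10 for 11.1 and Nlrc5 for 60.4. Basal identity markers went mostly with the basal gate. At least 3 of 8 reached 1 FPKM in all but 1 pregnant and in 28 of 34 virgin basal cells, but also in 8 pregnant luminal cells and 1 virgin luminal cell. Luminal markers did so in all 49 pregnant and 54 virgin luminal cells, but also in 71 pregnant and 19 virgin basal cells.

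Compared gene by gene, 4 of the 10 genes were at least 1 lower in pregnant basal than in pregnant luminal cells (Psmb8, Psmb9, Psmb10 and H2-K1) and 0 were higher. Over all genes 21.4% were lower and 6.74% higher. The median of the 10 was -0.88, against -0.37 over all genes. In virgin females 6 were lower in basal than in luminal cells (Psmb8, Psmb9, Tapbp, B2m, H2-D1 and H2-K1) and 0 higher, where 34.8% of all genes were lower and 3.05% higher. The medians were -1.14 for the 10 genes and -0.66 over all genes. Between pregnant and virgin luminal cells 0 of the 10 differed by 1 in either direction, with 6.31% of all genes higher and 6.16% lower (6.89% and 14.8% with every cell scaled to an equal sum), and medians of 0.06 and -0.01. Between pregnant and virgin basal cells Psmb8 and Tapbp were higher and 0 lower, with 15.6% of all genes higher and 0.56% lower, and medians of 0.41 and 0.28. The comparisons share groups of cells in pairs, so they are not independent of each other.

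**Figure D1:**
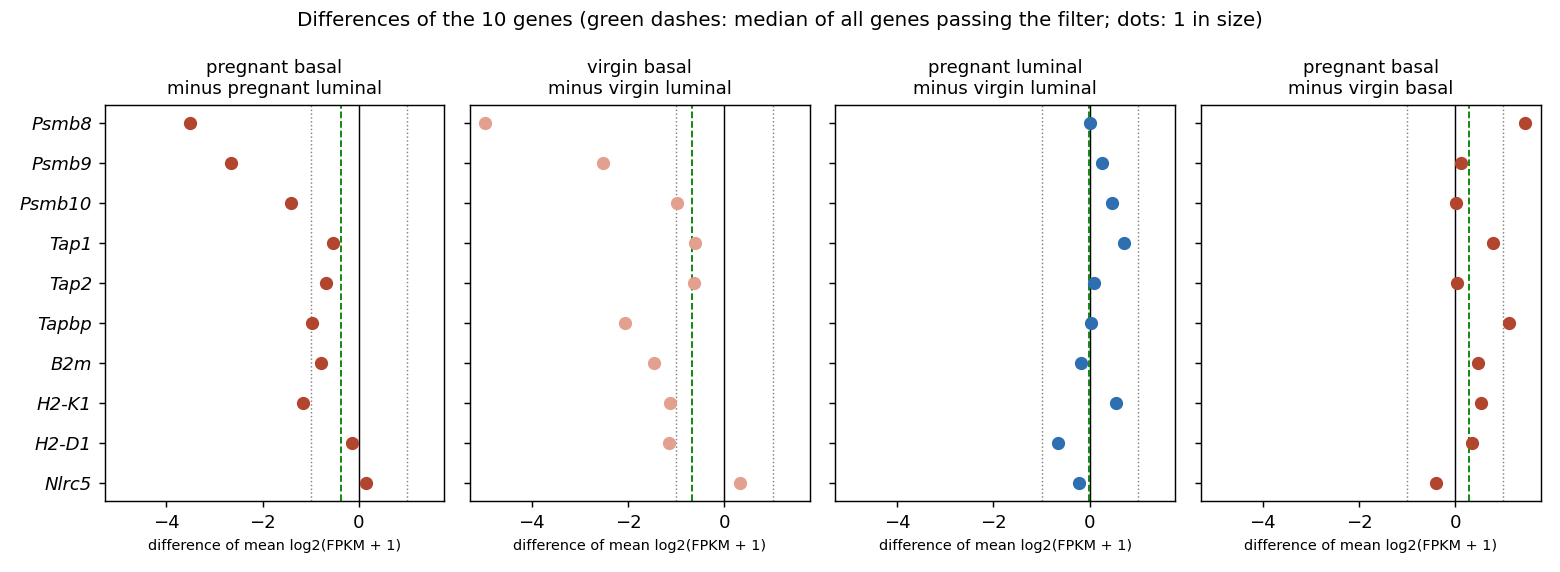
Differences of the mean log2(FPKM + 1) of the 10 genes in 4 comparisons; green dashes mark the median of all 7863 genes passing the filter and dotted lines a difference of 1. Psmb8 lay at -3.51 and -4.96 in the comparisons of basal with luminal cells, and no gene reached 1 between pregnant and virgin luminal cells.

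Psmb8, the beta-5i subunit with chymotrypsin-like activity, had the largest basal to luminal difference of the 10 genes in mean log2 level. By the ratio of mean FPKM Psmb9 differed more in pregnant females (-2.26 against -1.94 on the log2 scale) and Tap1 in virgin females (-2.41 against -1.5). In pregnant females it had a lowest value of 0, a median of 0.128 and a highest of 519 FPKM in basal cells, against 0, 124 and 1228 FPKM in luminal cells. In virgin females it had a median of 0 and a highest value of 1129 FPKM in basal cells, against 109 and 706 FPKM in luminal cells, with 0 as the lowest in both. Most luminal cells were thus high and most basal cells low, while the ranges overlapped in full. Psmb8 reached 1 FPKM in 47 pregnant basal cells (46.1%, exact Clopper-Pearson 95% interval 36.2 to 56.2%) and 43 of 49 pregnant luminal cells (87.8%, 75.2 to 95.4%). It did so in 5 of 34 virgin basal cells (14.7%, 4.95 to 31.1%) and 49 of 54 virgin luminal cells (90.7%, 79.7 to 96.9%). Intervals cover the counting of cells only.

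On the log2 scale Psmb8 averaged 2.56 ± 3.09 in pregnant basal cells, against 6.06 ± 2.80 in pregnant luminal cells (SD over cells), which is a difference of -3.51. In virgin females it averaged 1.11 ± 2.74 in basal cells, against 6.06 ± 2.47 in luminal cells, which is a difference of -4.96. The luminal groups were level, with a difference of 0.00 between pregnant and virgin cells. The basal average was higher by 1.45 in pregnant than in virgin cells, and more cells reached 1 FPKM. The mean FPKM ran the other way, at 46.5 FPKM in pregnant and 52 FPKM in virgin basal cells. A single virgin basal cell at 1129 FPKM held 63.9% of its group's summed Psmb8, and the mean of the other cells was 19.4 FPKM.

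**Figure D2:**
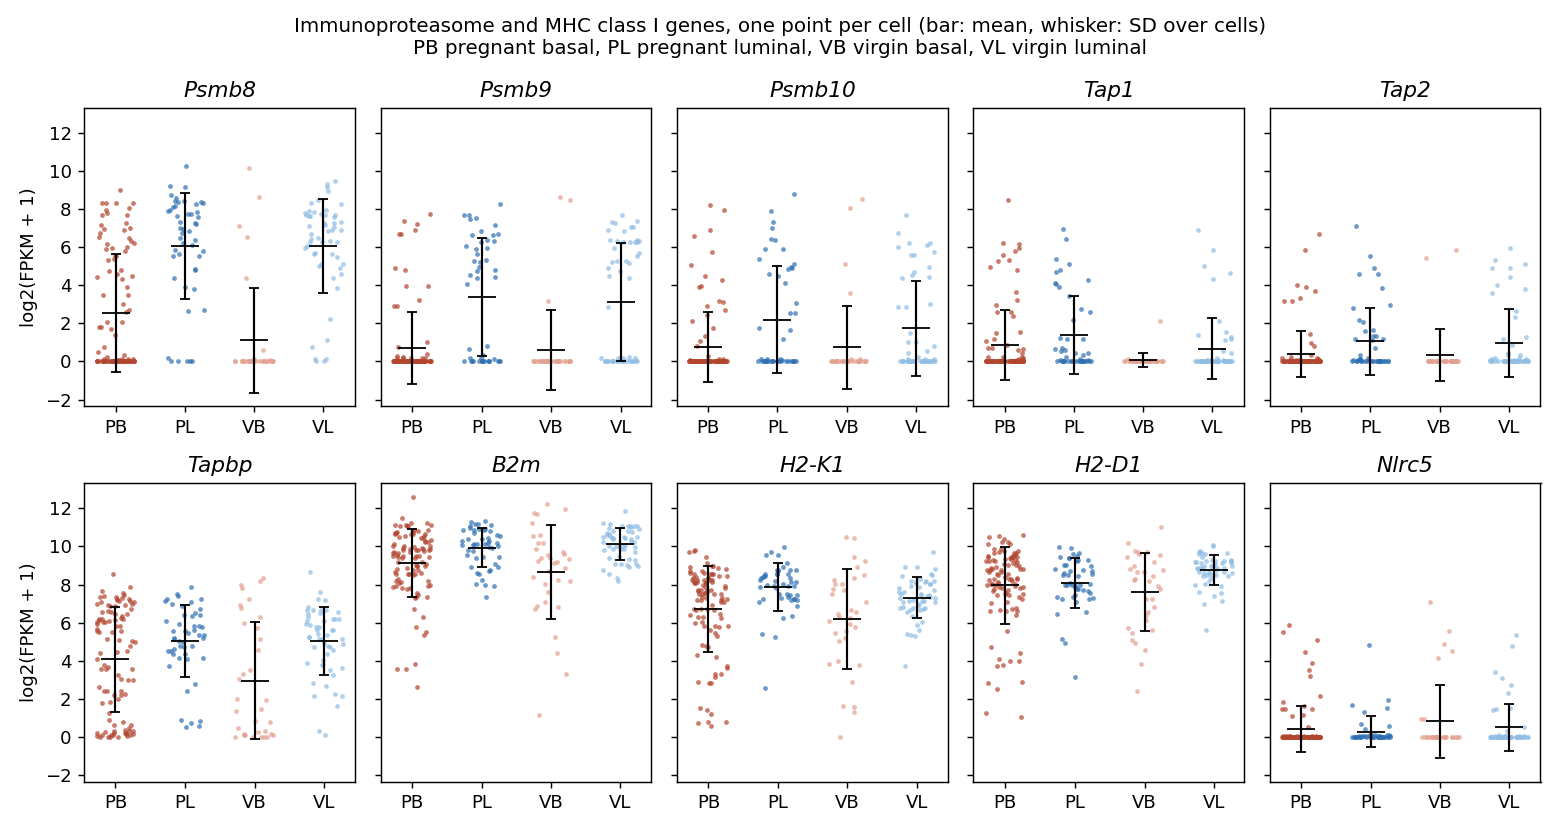
Values of the 10 genes in every cell, as log2(FPKM + 1), in pregnant basal (PB), pregnant luminal (PL, 49 cells), virgin basal (VB, 34) and virgin luminal cells (VL, 54); bars are means and whiskers SD over cells. Psmb8 and Psmb9 reached 1 FPKM in most luminal and few virgin basal cells, B2m, H2-K1 and H2-D1 were high in nearly every cell, and Nlrc5 was at 0 in most cells of every group.

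Psmb9, the beta-1i subunit, followed the same split at a lower level. It reached 1 FPKM in 14 pregnant basal cells (13.7%) and 27 of 49 pregnant luminal cells (55.1%). It did so in 3 of 34 virgin basal cells (8.82%) and 28 of 54 virgin luminal cells (51.9%). The median was 0 FPKM in pregnant basal cells and 20.3 in pregnant luminal cells, with highest values of 212 and 303. In virgin females the medians were 0 FPKM in basal and 13.2 in luminal cells, and the highest values 394 and 202. Every group had cells at 0, and the ranges overlapped. The log2 difference between basal and luminal cells was -2.66 in pregnant and -2.52 in virgin females, and between pregnant and virgin cells 0.25 in the luminal and 0.12 in the basal gate. By the ratio of mean FPKM the difference of basal minus luminal cells in virgin females was -0.84, under 1 in size.

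Psmb10, the trypsin-like beta-2i subunit, lies on chromosome 8, apart from the MHC region where Psmb8 and Psmb9 lie. Its median was 0 FPKM in pregnant basal cells and 0.0801 in pregnant luminal cells, with highest values of 294 and 439. The medians were 0 FPKM in virgin basal cells and 0.0445 in virgin luminal cells, with highest values of 368 and 208. It reached 1 FPKM in 19 pregnant basal (18.6%), 22 pregnant luminal (44.9%), 4 virgin basal cells (11.8%) and 20 virgin luminal cells (37.0%). Luminal cells were thus more often positive in both states, and the log2 difference of basal minus luminal cells was -1.42 in pregnant and -0.99 in virgin females. The mean FPKM of Psmb10 ran the other way in virgin females, at 20.03 FPKM in basal and 16.4 FPKM in luminal cells.

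Counted together, none of the 3 immunoproteasome subunits reached 1 FPKM in 47 pregnant basal cells (46.1%) and 3 of 49 pregnant luminal cells. In virgin females none did in 25 of 34 basal and 5 of 54 luminal cells. All 3 were found at once in 5 pregnant basal, 13 pregnant luminal, 1 virgin basal cell and 12 virgin luminal cells. A cell with all 3 transcripts was the exception in each group.

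The constitutive subunits that these 3 replace, Psmb5, Psmb6 and Psmb7, had the same direction between the gates. In pregnant females they were lower in basal than in luminal cells by 1.80, 1.23 and 1.05 on the log2 scale. In virgin females they were lower in basal cells by 4.21 (Psmb5), 4.3 (Psmb6) and 2.70 (Psmb7), against 4.96, 2.52 and 0.99 for their counterparts Psmb8, Psmb9 and Psmb10. Of the 11 other subunits of the 20S core, 9 were at least 1 lower in pregnant basal cells (median -1.29) and 11 in virgin basal cells (median -3.38), beside 21.4% and 34.8% of all genes. By the ratio of mean FPKM 0 of the 11 were lower in pregnant basal cells (median -0.32), beside 17.0% of all genes. In virgin basal cells 5 were lower by that ratio (median -0.88), beside 33.7% of all genes. Among cells of mid-range gene number (25th to 75th percentile) 4 were lower in pregnant basal cells, beside 15.4% of all genes. On the mean log2 scale immunoproteasome, constitutive and structural subunits were thus lower in basal cells. The value of Psmb7 in pregnant females turned to 0.06 in cells of mid-range gene number.

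Between pregnant and virgin basal cells Psmb8 was higher by 1.45, within the range of the other core subunits (1.43 to 2.88), while Psmb9 and Psmb10 lay below that range. All 11 other core subunits were at least 1 higher in pregnant basal cells (median 2.02), beside 15.6% of all genes. By the ratio of mean FPKM 4 of them were, beside 28.7% of all genes. On the mean log2 scale Psmb6, Psmb5 and Psmb7 were higher by 3.35, 2.38 and 0.93. Psmb9 and Psmb10 were higher by only 0.12 and 0.02, and both were lower by at least 1 by the ratio of mean FPKM (-1.17 and -1.03). In virgin basal cells the highest cell held 51.8% of the summed Psmb9 and 54.1% of the summed Psmb10. Psmb6 reached 1 FPKM in 90 pregnant basal cells (88.2%) and 12 of 34 virgin basal cells (35.3%), while Psmb9 did so in 13.7% and 8.82%. Among cells with at least 2000 genes, 93 pregnant and 12 virgin basal cells, the 11 core subunits had a median difference of 1.59. Of them 9 were higher by at least 1, beside 10.7% of all genes. In the same cells Psmb9 differed by -0.20, Psmb10 by 0.35 and the constitutive Psmb7 by 0.02. In cells of mid-range gene number, of which 6 were virgin basal, the median of the core subunits was 1.24, Psmb9 differed by 0.80, Psmb10 by 0.84 and Psmb7 by -0.23. The gap between the core subunits and Psmb9 or Psmb10 therefore depends on which cells are taken.

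Within a cell the balance of a subunit and its constitutive counterpart differed by pair. The log2 level of Psmb8 minus that of Psmb5 had a mean of -0.88 ± 3.67 in pregnant basal cells and 0.83 ± 3.47 in pregnant luminal cells. The mean was 0.06 ± 3.89 in virgin basal cells and 0.81 ± 3.13 in virgin luminal cells. In virgin basal cells 23 of 34 had neither transcript at 1 FPKM and 1 had both, so that mean is no measure of a balance within cells. Both transcripts were at 1 FPKM in 39 of 49 pregnant luminal cells, and Psmb8 was the higher of the pair in 27 of these. In virgin luminal cells both were found in 43 of 54, with Psmb8 higher in 22. In cells with both, Psmb9 was above Psmb6 in 4 of 13 pregnant basal, 5 of 26 pregnant luminal, 2 of 3 virgin basal cells and 2 of 27 virgin luminal cells. Psmb10 was above Psmb7 in 7 of 13, 6 of 19, 1 of 2 and 5 of 17 cells of these groups. Psmb9 was thus mostly the lower of its pair in luminal cells with both. Psmb10 and Psmb7 were about even only in the 13 pregnant basal cells with both, while 44 held Psmb7 alone and 6 Psmb10 alone. Over all pregnant basal cells Psmb10 minus Psmb7 had a mean of -2.51 ± 3.77.

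**Figure D3:**
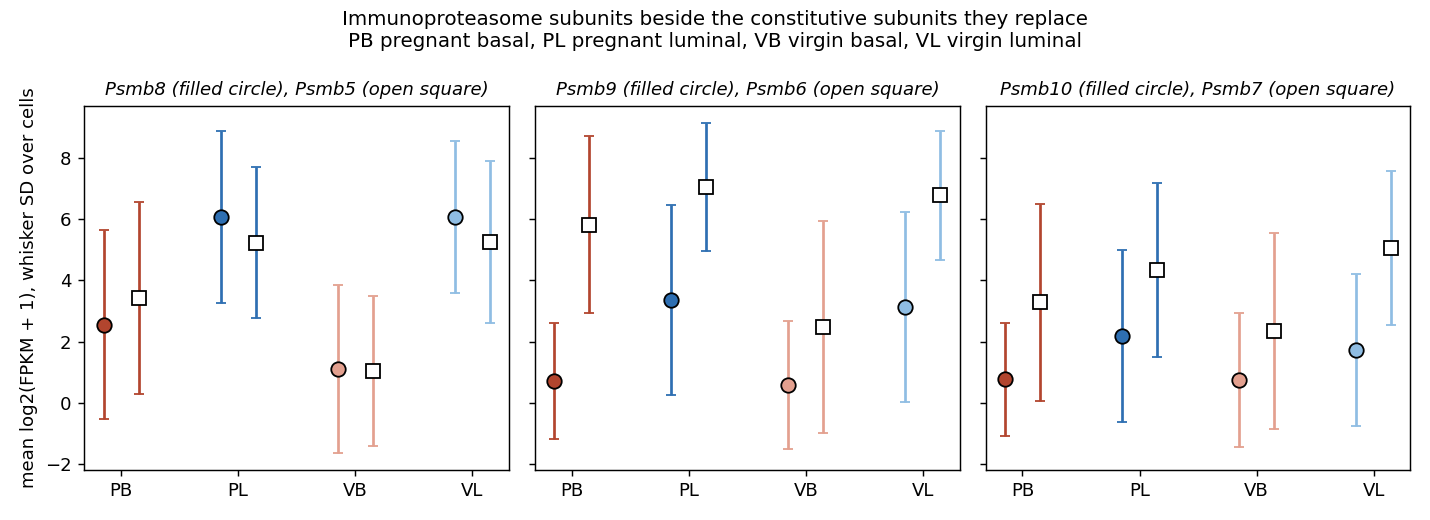
Mean log2(FPKM + 1) of each immunoproteasome subunit (filled circles) and the constitutive subunit it replaces (open squares) in pregnant basal (PB), pregnant luminal (PL), virgin basal (VB) and virgin luminal cells (VL); whiskers are SD over cells. Psmb8 lay at 6.06 in both luminal groups, close to or above Psmb5, while Psmb9 and Psmb10 lay below Psmb6 and Psmb7 in every group.

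The proteasome activator PA28, whose subunits are encoded by Psme1 and Psme2, opens the core particle and is, like the immunoproteasome, inducible by interferon gamma. Psme1 was lower by 2.5 in pregnant basal than in pregnant luminal cells and by 4.79 in virgin basal than in virgin luminal cells. Psme2 was lower by 2.15 and 3.68 in the same comparisons. Pomp, the maturation factor of the core particle, was lower by 2.15 and 4.23. Of the 7 activator and assembly genes, 6 were at least 1 lower in pregnant basal cells and 5 in virgin basal cells, with 0 higher, beside 21.4% and 34.8% of all genes lower. Among cells with at least 2000 genes 3 were lower in virgin basal cells, beside 28.1% of all genes. Reads of Psme2 and of its retrogene copy Psme2b may have been shared between them, since no source used here states how such reads were handled.

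Tapbp, which encodes tapasin, the bridge between the TAP transporter and the class I heavy chain, was the most abundant of the transport and loading genes. Its lowest, median and highest values were 0, 28.5 and 370 FPKM in pregnant basal cells and 0.414, 39.7 and 232 FPKM in pregnant luminal cells. They were 0, 2.30 and 323 FPKM in virgin basal cells and 0.0789, 38.6 and 400 FPKM in virgin luminal cells. Virgin basal cells were the low group, and all ranges overlapped. Tapbp reached 1 FPKM in 76 pregnant basal (74.5%), 44 pregnant luminal (89.8%), 19 virgin basal cells (55.9%) and 52 virgin luminal cells (96.3%). Its log2 difference of basal minus luminal cells was -0.97 in pregnant and -2.05 in virgin females, and of pregnant minus virgin basal cells 1.11. By the ratio of mean FPKM these 3 values shrank to -0.06, -0.12 and 0.10 on the log2 scale. Among cells at 1 FPKM or more the median was 64 FPKM in pregnant basal cells and 44.8 in pregnant luminal cells, and 50.8 in virgin basal cells and 40.5 in virgin luminal cells. Basal cells thus held Tapbp less often, and those with it were not lower.

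Tap1 and Tap2, the paired chains of the peptide transporter, were seen in a minority of cells of every group. Tap1 reached 1 FPKM in 20 pregnant basal (19.6%), 17 pregnant luminal (34.7%), 1 virgin basal cell (2.94%) and 11 virgin luminal cells (20.4%). Tap2 did so in 9 (8.82%), 17 (34.7%), 2 (5.88%) and 13 cells (24.1%) of the same groups. The highest Tap1 value was 351 FPKM in pregnant basal cells and 125 in pregnant luminal cells, 3.29 in virgin basal cells and 117 in virgin luminal cells. The highest Tap2 value was 103, 139, 56.7 and 61.3 FPKM in the same order. Their log2 differences of basal minus luminal cells were -0.55 and -0.68 in pregnant and -0.61 and -0.64 in virgin females, against medians of all genes of -0.37 and -0.66. By the ratio of mean FPKM, with 1 added to each mean, Tap1 was lower by 2.41 in virgin basal than in virgin luminal cells. The means themselves were 0.099 and 4.82 FPKM, and the single basal cell at 3.29 FPKM held 97.5% of its group's sum.

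Tap1 and Psmb9 lie head to head on mouse chromosome 17, Psmb9 at 34181987 to 34187764 on the minus strand and Tap1 at 34187553 to 34197225 on the plus strand (GENCODE vM21, GRCm38). Their annotated genes overlap by 212 bases, and it is not stated whether counting used the strand, so reads from the overlap cannot be assigned. In the RefSeq promoter table their start sites are 226 bases apart. The stretch between them is shown because both genes share it. It is chr17:34187331-34187555 of GRCm38.p6, plus strand, from the Psmb9 side to the Tap1 side.
Tap1 and Psmb9: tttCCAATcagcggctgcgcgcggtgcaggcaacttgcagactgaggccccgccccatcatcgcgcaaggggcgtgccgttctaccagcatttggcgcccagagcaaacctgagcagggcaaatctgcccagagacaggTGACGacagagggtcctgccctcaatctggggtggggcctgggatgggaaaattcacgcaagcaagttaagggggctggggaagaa
Capitals mark the X2 core TGACG, which CREB and ATF factors bind, and the Y core CCAAT, which NF-Y binds. Each was found 1 time in this stretch, and the interferon regulatory factor (IRF) core AANNGAAA 0 times. These are the letters of the reference strain, C57BL/6, not those of the FVB animals.

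B2m, the light chain of every class I molecule, was the most abundant of the 10 genes and was found at 1 FPKM in all 239 cells. Its lowest, median and highest values were 5.04, 734 and 6292 FPKM in pregnant basal cells and 159, 1126 and 2589 FPKM in pregnant luminal cells. They were 1.26, 591 and 4842 FPKM in virgin basal cells and 292, 1232 and 3779 FPKM in virgin luminal cells. The lowest cells were basal and so were the highest, and the luminal ranges lay within the basal ones. The log2 average was 9.14 ± 1.79 in pregnant basal cells, against 9.93 ± 1.02 in pregnant luminal cells, and the difference -0.79. It was 8.66 ± 2.45 in virgin basal cells, against 10.12 ± 0.83 in virgin luminal cells, and the difference -1.46. By the ratio of mean FPKM the value in virgin females was -0.40.

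H2-K1, a classical class I heavy chain that presents peptides to CD8+ T cells, was found in 98 pregnant basal (96.1%), 49 of 49 pregnant luminal, 33 of 34 virgin basal cells (97.1%) and 54 of 54 virgin luminal cells. Its lowest, median and highest values were 0.509, 178 and 894 FPKM in pregnant basal cells and 4.87, 260 and 1009 FPKM in pregnant luminal cells. They were 0, 81.8 and 1431 FPKM in virgin basal cells and 12.4, 166 and 832 FPKM in virgin luminal cells. A tail of low basal cells was present in both states. The log2 difference of basal minus luminal cells was -1.15 in pregnant and -1.14 in virgin females. The value in pregnant females was under 1 in size with pseudocount 10 (-0.91), in cells of mid-range gene number (-0.72), with cells scaled to an equal sum (-0.79) and by the ratio of mean FPKM (-0.53). The value in virgin females was -0.78 with pseudocount 10 and turned to 0.17 by the ratio of mean FPKM.

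H2-D1, the other classical heavy chain, reached 1 FPKM in all 239 cells. Its lowest, median and highest values were 1.04, 328 and 1567 FPKM in pregnant basal cells and 7.81, 261 and 1001 FPKM in pregnant luminal cells. They were 4.32, 295 and 2047 FPKM in virgin basal cells and 47.7, 471 and 1075 FPKM in virgin luminal cells. Virgin luminal cells were thus the high and narrow group. The log2 difference of basal minus luminal cells was -0.14 in pregnant and -1.15 in virgin females. The first of these turned to 0.55 in cells of mid-range gene number (25th to 75th percentile), and to 0.26 by the ratio of mean FPKM. The value in virgin females was -0.96 in cells of mid-range gene number and -0.32 by the ratio of mean FPKM, both under 1 in size.

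The balance of the 2 heavy chains within a cell differed between pregnant and virgin luminal cells. H2-K1 was higher by 0.55 and H2-D1 lower by 0.67 in pregnant than in virgin luminal cells. The log2 level of H2-K1 minus that of H2-D1 had a mean of -0.23 ± 1.42 in pregnant luminal cells and -1.45 ± 1.08 in virgin luminal cells (SD over 49 and 54 cells). H2-K1 exceeded H2-D1 in 18 of 49 pregnant luminal cells (36.7%) and 5 of 54 virgin luminal cells (9.26%). In basal cells the average was -1.24 ± 2.36 in pregnant and -1.44 ± 2.30 in virgin females, and H2-K1 was above in 22 (21.6%) and 9 cells (26.5%). The balance was also nearer to equality in virgin luminal cells below 1 FPKM of Esr1, the oestrogen receptor, at -1.12 ± 1.32 in 21 cells, against -1.66 ± 0.85 in 33 cells with it. Class I genes are near-identical copies of each other, FVB mice carry another MHC haplotype than the reference, and how reads that match several genes were assigned is not given. Levels of H2-K1 and H2-D1, and their balance, are uncertain for these reasons.

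**Figure D4:**
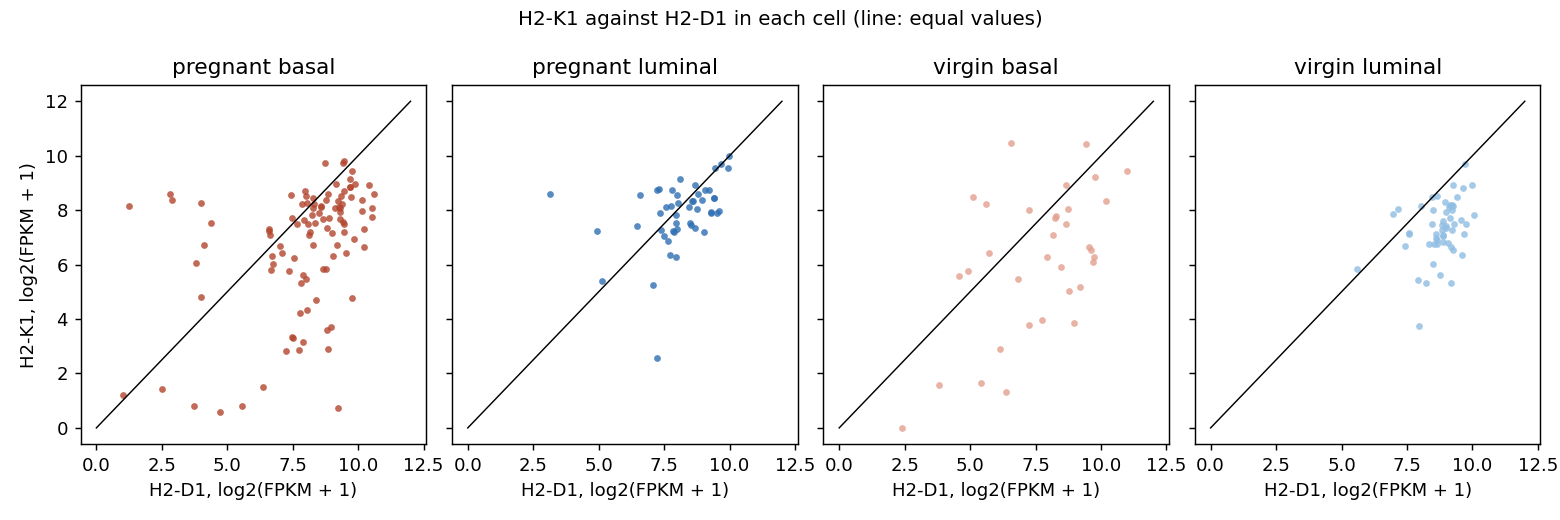
H2-K1 (vertical) against H2-D1 (horizontal) in each cell, both as log2(FPKM + 1), for pregnant basal, pregnant luminal, virgin basal and virgin luminal cells; the line marks equal values. H2-K1 lay above H2-D1 in 18 of 49 pregnant luminal cells and in 5 of 54 virgin luminal cells, and basal cells spread to low values of both genes.

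The promoters of the 3 class I chains are shown because these genes were the most abundant and their letters hold all 3 cores searched. Each is 250 bases before the RefSeq start site in GRCm38.p6, 5′ to 3′ on the gene's strand. They are chr2:122147437-122147686 (plus strand) for B2m, chr17:34000348-34000597 (minus strand) for H2-K1 and chr17:35262844-35263093 (plus strand) for H2-D1.
B2m: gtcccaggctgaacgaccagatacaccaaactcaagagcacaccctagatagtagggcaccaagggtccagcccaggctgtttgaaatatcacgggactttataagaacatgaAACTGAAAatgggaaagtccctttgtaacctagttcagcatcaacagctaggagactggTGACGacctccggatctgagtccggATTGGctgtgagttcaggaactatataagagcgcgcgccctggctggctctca
H2-K1: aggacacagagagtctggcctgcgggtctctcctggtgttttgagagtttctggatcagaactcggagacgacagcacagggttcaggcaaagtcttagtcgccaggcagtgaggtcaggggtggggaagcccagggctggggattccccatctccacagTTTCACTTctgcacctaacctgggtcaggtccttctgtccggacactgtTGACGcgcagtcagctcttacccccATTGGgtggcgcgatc
H2-D1: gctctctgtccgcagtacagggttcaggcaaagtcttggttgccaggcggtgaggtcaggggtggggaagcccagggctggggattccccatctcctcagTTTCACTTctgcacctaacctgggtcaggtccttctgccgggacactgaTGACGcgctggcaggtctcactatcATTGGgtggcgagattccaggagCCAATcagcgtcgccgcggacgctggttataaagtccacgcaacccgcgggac
Capitals mark the IRF core AANNGAAA, the X2 core TGACG and the Y core CCAAT, on either strand, and no match overlaps another. In B2m, H2-K1 and H2-D1 the order was the same, the IRF core first, then X2, then Y, with an additional Y core after it in H2-D1. The Y core began 25 bases after the X2 core in each of the 3. Of the 10 genes 8 had a RefSeq promoter. Over all 32851 promoters of this length 21.3% held the IRF core, 17.8% the X2 core, 33.85% the Y core and 1.08% all 3. Among the 8 genes 3 held the IRF core, 5 the X2 core (the class I chains, Tap1 and Psmb9) and 6 the Y core (these and Tapbp). All 3 cores were held by 3 genes. The windows of Tap1 and Psmb9 share most of their bases and are not separate cases. Those of H2-K1 and H2-D1 share long runs of letters, so their cores, order and spacing are not separate cases either. Psmb8 and Psmb10 held 0 of the 3 cores in this window.

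Nlrc5, the transactivator that acts on class I promoters through their W/S-X-Y module, was scarce and was not lower in basal than in luminal cells. It reached 1 FPKM in 15 pregnant basal (14.7%), 5 pregnant luminal (10.2%), 5 virgin basal cells (14.7%) and 9 virgin luminal cells (16.7%). Its median was 0 FPKM in each group, and its highest values were 57.1, 27, 134 and 40.3 FPKM in the same order. The log2 difference of basal minus luminal cells was 0.16 in pregnant and 0.32 in virgin females. Of the 9 other genes 9 had a difference below 0 in both comparisons. Ciita, its class II counterpart, reached 1 FPKM in 0 of 239 cells.

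Ordered by group means, both luminal groups were above both basal groups for 8 of the 10 genes. The exceptions were Tap1, with pregnant basal above virgin luminal cells, and Nlrc5, with virgin basal cells first. Between neighbouring groups in the order of a gene, 29 of 30 gaps were within the pooled SD over cells; the exception was Psmb8 between pregnant luminal and pregnant basal cells. The mean log2 level over the 10 genes was 3.36 ± 1.06 in pregnant basal cells and 4.53 ± 1.05 in pregnant luminal cells, and 2.91 ± 1.10 in virgin basal cells and 4.43 ± 0.85 in virgin luminal cells. The median number of the genes found per cell was 5, 7, 4 and 6 in the same order, and only 1 cell, a virgin luminal one, had all 10.

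Gene number moved with these levels. Within groups the correlation of the mean level with the number of genes per cell was 0.44, 0.54, 0.14 and 0.50 for pregnant basal, pregnant luminal, virgin basal and virgin luminal cells, as a description over cells that also differ in depth. Among cells with at least 2000 genes, of which 12 were virgin basal, Psmb8 was lower in basal cells by 3.39 in pregnant and 4.61 in virgin females. In those cells 4 of the 10 genes were lower in pregnant basal and 7 in virgin basal than in luminal cells, beside 20.7% and 28.1% of all genes.

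**Figure D5:**
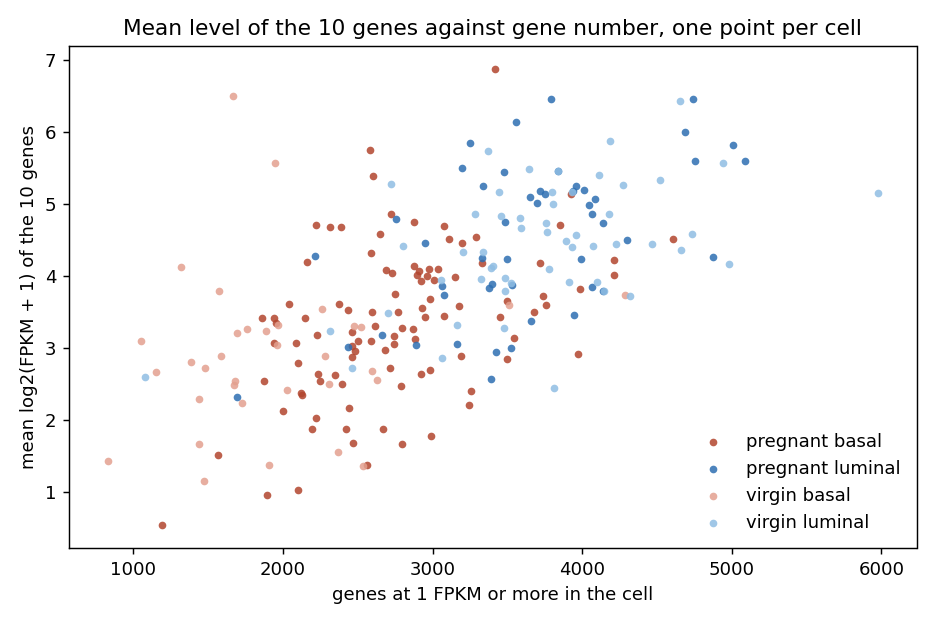
Mean log2(FPKM + 1) of the 10 genes against the number of genes at 1 FPKM or more, with 1 point per cell, for pregnant basal, pregnant luminal (49 cells), virgin basal (34) and virgin luminal cells (54). Luminal cells lay higher on both axes, with group means of 4.53 and 4.43 against 3.36 and 2.91 in basal cells.

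Luminal cells of virgin females were not uniform. The 33 virgin luminal cells at 1 FPKM or more of Esr1, the mark of hormone-sensing cells, had a higher log2 level than the 21 others of Psmb8 (6.94 ± 1.54 against 4.69 ± 3.02), Psmb9 (4.11 ± 3.03 against 1.57 ± 2.57) and H2-D1 (9.03 ± 0.47 against 8.35 ± 1.04). For B2m (10.03 against 10.26), H2-K1 (7.36 against 7.23) and Tapbp (5.05 against 4.96) the subgroups lay close together, and gene number was also higher with Esr1, at a median of 3912 against 3485. Esr1 reached 1 FPKM in 0 of 49 pregnant luminal cells, 8 pregnant basal cells and 2 virgin basal cells. Set against the 21 virgin luminal cells without Esr1, an alternative chosen after seeing the data, pregnant luminal cells were higher by 1.37 in Psmb8, 1.80 in Psmb9, 1.04 in Psmb10 and 1.13 in Tap1. The count between pregnant and virgin luminal cells therefore depends on which virgin cells are taken: 0 genes with all of them and 4 without those with Esr1, where 8.09% of all genes were higher and 3.7% lower. Against virgin luminal cells without Esr1, virgin basal cells were still lower in Psmb8 by 3.59, in Psmb9 by 0.97 and in H2-D1 by 0.74.

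Markers of other cell types were checked beside the class I genes, which many of those types express strongly. Of 16 immune markers 15 were in the table, and 2 reached 1 FPKM in any pregnant basal, 5 in any pregnant luminal, 1 in any virgin basal and 6 in any virgin luminal cell. Their summed level had a median of 0.103, 0.0681, 0.101 and 0.20 FPKM and a highest value of 263, 175, 1.44 and 210 FPKM in these groups. No cell had 3 of them; Tyrobp and Cd79a were listed at 0 in every cell. At least 3 of 10 endothelial markers were found in 4 pregnant basal, 1 pregnant luminal, 6 virgin basal cells and 0 virgin luminal cells, and their summed level reached 1986, 253, 6733 and 45.1 FPKM. At least 3 of 6 fibroblast markers were found in 1 pregnant luminal cell and 1 virgin basal cell. Their summed level reached 9544 and 1908.5 FPKM in these groups, and no alternative left out cells by fibroblast markers. In 8 virgin basal cells with Pecam1 or Cdh5, both endothelial, B2m averaged 10.55 ± 1.74, against 8.08 ± 2.36 in the other 26. Their Psmb8 averaged 2.36 ± 4.35 against 0.72 ± 1.99. Both virgin basal cells with Tap2 and the 1 with Tap1 were among these 8. Among pregnant basal cells 0 of 9 with Tap2 and 1 of 20 with Tap1 had Pecam1 or Cdh5. Without all cells at 1 FPKM of Ptprc, Pecam1 or Cdh5 the basal cells were lower in Psmb8 by 3.60 in pregnant and 5.35 in virgin females, and 5 and 7 of the 10 genes were lower by at least 1, beside 22.1% and 33.2% of all genes.

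Other genes of the pathway were counted in the same way. Of the 7 peptide loading and trimming genes, 5 were lower by at least 1 in basal cells of pregnant and 5 of virgin females, beside 21.4% and 34.8% of all genes. Among them were Sec61a1, a subunit of the channel into the endoplasmic reticulum (-2.13 in pregnant, -3.15 in virgin females), and the chaperone gene Calr (-1.30 and -2.48). In virgin females Sec61a1 was at -1.03 among cells with at least 2000 genes and at -0.34 in cells of mid-range gene number, where Calr was at -0.50 in both states. In pregnant basal cells 4 of the 7 were higher than in virgin basal cells, beside 15.6% of all genes. They were Pdia3, which acts with tapasin (2.01), Sec61a1 (1.74), Calr (1.64) and Canx (1.49). Among cells with at least 2000 genes these 4 were at 0.39, -0.34, 0.98 and 0.81, all under 1 in size. Of 9 other class I genes, 5 of which passed the filter, 1 was lower in pregnant basal cells, H2-T23, which encodes Qa-1 (-1.15). In virgin basal cells 0 were lower, and H2-T23 was at -0.96. The shares of all genes lower were 21.4% and 34.8%. Of 7 class II genes 2 passed the filter, H2-DMb1 and Cd74. Lower by at least 1 in virgin basal than in virgin luminal cells were H2-DMb1 (-1.24) and H2-DMa (-1.11). H2-DMa did not pass the filter, and the share of 34.8% lower is over genes that passed it. In the other comparisons 0 of the 7 differed by 1. Against virgin luminal cells without Esr1 these values were -0.47 and 0.05.

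Interferon receptor and signalling genes did not share 1 direction. Of 19, 15 of which passed the filter, 2 were higher and 2 lower by at least 1 in pregnant basal than in pregnant luminal cells, beside 6.74% and 21.4% of all genes. Both receptor chains of interferon gamma were lower, Ifngr1 by 2.71 and Ifngr2 by 1.93, while Irf1, the factor through which interferon gamma acts on many class I pathway genes, was higher by 1.53 and the feedback inhibitor Socs3 by 2.59. In virgin basal cells 0 were higher and 4 lower than in virgin luminal cells, beside 3.05% and 34.8% of all genes, with Ifngr2 at -2.61. Irf1 reached 1 FPKM in 62 pregnant basal cells (60.8%) and 21 of 49 pregnant luminal cells (42.9%), and in 13 of 34 virgin basal cells (38.2%) and 23 of 54 virgin luminal cells (42.6%). Psmb8 and Irf1 thus had opposite orders in pregnant females. In luminal cells Ifngr1 was higher by 1.70 in pregnancy and Jak2 lower by 1.24. Against virgin luminal cells without Esr1 these differences were 0.96 and -0.31, both under 1 in size.

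Of 28 interferon-stimulated genes, 14 of which passed the filter, 3 were higher and 2 lower in pregnant basal than in pregnant luminal cells, and 1 higher and 5 lower in virgin basal than in virgin luminal cells, beside the same shares of all genes. Ifitm3, which encodes a membrane protein that restricts virus entry, was higher by 7.97 in pregnant and 3.61 in virgin basal cells, with medians of 2259 FPKM in pregnant basal cells and 0.369 in pregnant luminal cells, and of 1316 in virgin basal cells and 198 in virgin luminal cells. Ifitm2 was higher by 2.47 in pregnant basal cells. Ifi35 was lower by 1.71 and 1.96 in pregnant and virgin basal cells, and Ifi27 by 3.42 in virgin basal cells. Of 11 class I transcription factor genes, 8 of which passed the filter, 1 was higher in pregnant basal cells, the NF-Y subunit gene Nfyb (1.23). In virgin basal cells 2 were lower, Rela (-1.15) and Nfyc (-1.05). Among cells with at least 2000 genes these values were -0.83 and -0.59, both under 1 in size. Beside these counts stand 6.74% of all genes higher in pregnant and 34.8% lower in virgin basal cells.

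The genes most like the 10 were sought by the Pearson correlation of a gene with their mean log2 level within each group, averaged over the 4 groups. Among 7853 candidates the first 10 were H2-Q2 (0.52), C920025E04Rik (0.51), H2-Bl (0.51), Psme2 (0.50), H2-Q4 (0.47), Psme2b (0.46), Atox1 (0.44), Prdx2 (0.42), Clu (0.41) and H2-Q1 (0.40). In pregnant basal cells Clu stood at 0.11 and Prdx2 at 0.12. Adjusted for gene number the values were lower, with H2-Q2 and H2-Bl at 0.47 and Psme2 at 0.40. Among cells with at least 2000 genes Atox1, Prdx2 and Clu were not in the first 10. H2-Q2, H2-Bl, H2-Q4 and H2-Q1 are class I genes or pseudogenes that may share reads with H2-K1 and H2-D1. C920025E04Rik was the gene most like H2-K1 (0.72) and H2-Bl the gene most like H2-D1 (0.60). Among pairs of the 10 the highest averages were H2-K1 with H2-D1 (0.42), Psmb8 with H2-D1 (0.39), B2m with H2-K1 (0.37), B2m with H2-D1 (0.36) and Psmb8 with Psmb9 (0.34). Nlrc5 had no pair above 0.12, which it had with Psmb8. These are descriptions over the cells of a group, which differ in depth and gene number, and carry no test.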

How the data were processed

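The authors deposited 1 table of FPKM values, 18850 genes by 239 cells. That the unit is FPKM rests on the values and on the named tools. The submitters' processing notes list Cufflinks 2.2.1, TopHat2 2.0.13 and Trimmomatic 0.35, and the build mm10 (GRCm38). Annotation, strand setting and treatment of multi-mapped reads: not given in the sources used here. Libraries were made with SMARTer and Nextera XT chemistry and capture sites were inspected for doublets, per the labels' protocols; no doublet caller was run.

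From these values the mean over cells of log2(FPKM + 1), its SD, and the share of cells at 1 FPKM with an exact Clopper-Pearson 95% interval were computed (Python 3.11.15, pandas 2.3.3, numpy 2.4.6, scipy 1.17.1). Each group is 1 sample, so no test was made, and SDs are over cells. The pseudocount of 1 understates differences of low genes. A value of 0 may be a failed estimate. Relative depth came from the steps of low values: over 11343 genes 99.9% of 523839 values were whole within 0.05 of a step, and 794 single-transcript genes set its scale. Differences were checked on simulated data. No cell was left out of the main values, 0 columns lacked a sample, and 0 pairs of cells were identical. Positions are from GENCODE vM21 and promoters from RefSeq (GRCm38.p6).

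The members, the 18 further gene lists and the alternatives were chosen with earlier results of these data known. Named genes were the 10 members, up to 4 genes per list with the largest difference in a comparison, the 10 genes most like the members and the 3 most like each member. Esr1 and other markers were named where a result turns on them, and Ciita and other genes outside this rule after their values were seen. Alternatives were other pseudocounts, scalings, cell filters, thresholds and a ratio of mean FPKM.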

Additional observations from a re-analysis of the deposited data

How the results depend on the processing

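No paired analysis was possible because every sample is 1 cell, the numbers in the titles only name cells, and no result comes from a test; leaving out replicates has no meaning for groups of 1 sample. Of the 40 differences 12 reached 1, and of their 114 values under the alternatives 22 were under 1 and 2 had another sign. Both reversals came from the ratio of mean FPKM, with H2-K1 at 0.17 between virgin basal and virgin luminal cells and Psmb8 at -0.16 between pregnant and virgin basal cells, in which high cells weigh more. Psmb8 and Psmb9 between pregnant basal and pregnant luminal cells stayed past 1 in all 9 planned settings, down to -1.94 and -1.31.

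The count of genes past 1 moved as follows. Between pregnant basal and pregnant luminal cells it was 7 with pseudocount 0.1 and 2 with pseudocount 10, where 42.6% and 4.95% of all genes were lower, and 8 and 2 at a threshold of 0.5 and 2. Between virgin basal and virgin luminal cells it was 9 with pseudocount 0.1, 3 by the ratio of mean FPKM (2 lower and 1 higher, Nlrc5, with a mean difference of -0.42) and 3 at a threshold of 2. Of all genes 61.6% were lower with pseudocount 0.1, and 33.7% lower and 16.2% higher by the ratio of mean FPKM. Between pregnant and virgin luminal cells it was 1 with pseudocount 0.1, 2 in cells of mid-range gene number (25th to 75th percentile), 1 after scaling each cell to an equal sum, 4 without virgin luminal cells with Esr1 and 3 at a threshold of 0.5. The shares of all genes higher and lower were 14.2% and 14.7% with pseudocount 0.1, and 7.50% and 8.28% in cells of mid-range gene number. Between pregnant and virgin basal cells it was 0 with pseudocount 10, 4 among cells with at least 2000 genes, 1 among cells with the keratins of their gate, 4 by the ratio of mean FPKM (1 higher and 3 lower, against 2 higher and 0 lower by mean log2 level), and 4 and 0 at a threshold of 0.5 and 2. The share of all genes higher was 4.04%, 10.7% and 14.6% in the first 3 of these settings. By the ratio of mean FPKM 28.7% of all genes were higher and 12.3% lower. No share of all genes is given at thresholds of 0.5 and 2, so the counts there have no background beside them.

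Without the filter the share of all genes higher and lower by 1 was 2.89% and 8.98% between pregnant basal and pregnant luminal, 1.34% and 14.8% between virgin basal and virgin luminal, 2.66% and 2.77% between pregnant and virgin luminal, and 6.57% and 0.26% between pregnant and virgin basal cells. Scaling to an equal sum moved the median of all genes to -1.0 between virgin basal and virgin luminal, -0.21 between pregnant and virgin luminal and 0.39 between pregnant and virgin basal cells, and in the luminal comparison 6.89% of all genes were then higher and 14.8% lower; relative to that median, Psmb8 and Psmb9 kept their direction between the gates. The cause of these moves was not tested. The number of cells limits all shares, since a count of 0 in 34 virgin basal cells allows up to 3 cells.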
